A study of Mus musculus with 4 samples.

Results

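The immunoglobulin lambda light chain contigs of sorted B220lo bone marrow cells were described by their V gene. The members were the rows with chain IGL in the deposited contig table of the control B220lo library, grouped by V gene into IGLV1, IGLV2 and IGLV3. They came to 1682 contigs in 1625 cell barcodes, of 18894 immunoglobulin contigs in that library (9810 IGH, 7402 IGK) and 22449 in the 4 libraries of the series. The libraries were 1 each of control B220lo cells, control Kit+ cells, Mll3/4 deleted Kit+ cells and Mll3/4SI Kit+ cells. All were CD45.2+ bone marrow cells taken 10 weeks after transplantation and run with a 10x Genomics 5′ kit, version 2. The labels give no genotype, strain or treatment beyond these names, do not expand SI, and do not state how many mice entered a library. With 1 library per group no test between groups was possible. Cells of 1 library are not replicates, so intervals below are exact 95% binomial (Clopper-Pearson) or Poisson intervals that cover counting error only. Where a count is 0, the share it allows is given by a separate rule, as 3 counts of the total, and is not the end of such an interval.

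A B cell's antigen receptor pairs a heavy chain with a light chain of either the kappa or the lambda kind. In the mouse most light chains are kappa, and the lambda locus is short, with few V genes and a constant (C) gene behind each joining (J) segment. Light chain genes are joined from a V and a J segment at the pre-B stage by the RAG recombinase. The join forms the third complementarity-determining region (CDR3), the part of the chain most varied in sequence. The C segment is added by splicing, so a transcript carries the C gene that lies next to the J it used. Low surface B220 marks B-lineage precursors and also antibody-secreting plasma cells, which have lost much of it.

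In the GENCODE M21 annotation of GRCm38 the locus lies on the minus strand of chromosome 16, and transcription runs from high to low coordinates. Its order is Iglv2 (chr16:19260401-19260859), Iglv3 (chr16:19241207-19241690), Iglj2 (chr16:19200198-19200235) with Iglc2, Iglj4 with Iglc4, Iglv1 (chr16:19085017-19085500), Iglj3 (chr16:19067041-19067078) with Iglc3, and Iglj1 (chr16:19063225-19063262) with Iglc1. The gene counts list the V genes as Iglv1 (ENSMUSG00000076934), Iglv2 (ENSMUSG00000076940) and Iglv3 (ENSMUSG00000076939). The germline V regions follow, 5′ to 3′ from the first base of framework 1 to the last base of framework 3, as annotated V transcripts give them. They are shown because IGLV1 and IGLV2 must be told apart by few bases. In the first 2 lines capitals mark the bases at which IGLV1 and IGLV2 differ, and in the third line capitals mark CDR1 and CDR2.
IGLV1: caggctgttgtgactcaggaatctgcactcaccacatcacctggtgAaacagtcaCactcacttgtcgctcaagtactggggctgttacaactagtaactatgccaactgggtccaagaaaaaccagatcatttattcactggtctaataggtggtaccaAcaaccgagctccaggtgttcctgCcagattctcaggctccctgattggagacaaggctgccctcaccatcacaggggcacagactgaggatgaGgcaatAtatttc
IGLV2: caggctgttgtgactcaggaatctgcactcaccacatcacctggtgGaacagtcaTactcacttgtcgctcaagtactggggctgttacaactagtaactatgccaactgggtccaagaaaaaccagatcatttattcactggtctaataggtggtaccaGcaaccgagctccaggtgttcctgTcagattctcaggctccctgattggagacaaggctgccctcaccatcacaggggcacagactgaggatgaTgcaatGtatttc
IGLV3: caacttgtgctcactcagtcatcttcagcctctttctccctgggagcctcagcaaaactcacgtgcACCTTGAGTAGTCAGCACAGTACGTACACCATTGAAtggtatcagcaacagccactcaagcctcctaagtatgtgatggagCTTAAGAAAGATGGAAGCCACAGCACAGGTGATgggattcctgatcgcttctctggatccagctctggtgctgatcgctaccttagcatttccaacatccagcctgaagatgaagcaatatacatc
IGLV1 and IGLV2 differed at 6 of 267 bases (97.8% identity), whereas IGLV3 had 54.2% identity with IGLV1. Among the C genes Iglc2 and Iglc3 shared 95.6% of their aligned coding bases, and Iglc1 shared 73.0% and 74.7% with them.

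The material of every join is the end of the V gene from its conserved cysteine codon and the start of the J segment. These ends are shown because the CDR3 sequences below are read against them, and capitals mark the part of each J that enters the CDR3.
IGLV1 end: tgtgctctatggtacagcaaccatttc
IGLV2 end: tgtgctctatggtacagcacccatttc
IGLV3 end: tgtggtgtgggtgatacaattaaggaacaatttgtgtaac
IGLJ1: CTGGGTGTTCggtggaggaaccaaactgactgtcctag
IGLJ2: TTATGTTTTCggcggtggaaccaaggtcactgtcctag
IGLJ3: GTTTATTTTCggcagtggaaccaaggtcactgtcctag
The most frequent CDR3 of each V and J pair with at least 5 contigs is given next, in deposited contig order of bases. Capitals mark bases that both germline ends could have supplied. In IGLV1 with IGLJ2 they mark bases left between the longest germline matches from each end.
IGLV1-IGLJ1: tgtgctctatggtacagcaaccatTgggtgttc
IGLV1-IGLJ3: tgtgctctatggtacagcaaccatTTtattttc
IGLV1-IGLJ2: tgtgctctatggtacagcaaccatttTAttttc
IGLV2-IGLJ2: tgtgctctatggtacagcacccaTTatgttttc
IGLV2-IGLJ1: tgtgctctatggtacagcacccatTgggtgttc
IGLV2-IGLJ3: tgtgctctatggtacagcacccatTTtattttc
IGLV3-IGLJ2: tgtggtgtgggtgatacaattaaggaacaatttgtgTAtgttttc
Except in the IGLV1-IGLJ2 sequence, each join falls on 1 or 2 bases that the V end and the J start have in common. That sequence comes from 3 contigs of 1 UMI and has the same bases as the IGLV1-IGLJ3 sequence. Its different capitals follow from the J call alone, and read against IGLJ3 it has 2 shared bases.

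IGLV1 was the most frequent lambda V gene and IGLV3 the least frequent. IGLV1 accounted for 1157 contigs (68.8%, interval 66.5 to 71.0%), IGLV2 for 405 (24.1%, 22.1 to 26.2%) and IGLV3 for 120 (7.13%, 5.95 to 8.47%). The 3 intervals did not overlap. This order held in each range of unique molecular identifiers (UMIs, 1 per captured transcript molecule) behind a contig, but the shares did not. Of the 289 contigs with 1 or 2 UMIs 94.5% were IGLV1, against 58.5% of the 1106 contigs with 10 to under 500 UMIs. In that range IGLV2 made up 31.2% and IGLV3 10.3%. Lambda contigs were 18.5% (17.7 to 19.3%) of the 9084 light chain contigs of the library, and 9.64% of its 16861 barcodes held one.

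Each V gene had a main J partner, and in each case it lay downstream of it. IGLV1 was joined to IGLJ1 in 977 contigs (84.4%, interval 82.2 to 86.5%), to IGLJ3 in 175 (15.1%) and to IGLJ2 in 5. IGLV2 was joined to IGLJ2 in 352 contigs (86.9%, 83.2 to 90.0%), to IGLJ1 in 47 (11.6%) and to IGLJ3 in 6. IGLV3 was joined to IGLJ2 in 119 of 120 contigs (99.2%), to IGLJ1 in 1 and to IGLJ3 in 0, which allows a share of up to 2.5%. IGLJ4 was called in 0 of 1682 contigs, which allows up to 0.178%.

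The more frequent J was not always the nearer one. From the end of Iglv1 the gap to Iglj3 is 17.9 kb and to Iglj1 21.8 kb, and the farther Iglj1 was used more. For Iglv2 the gap is 60.2 kb to Iglj2 and 197 kb to Iglj1, and for Iglv3 it is 41.0 kb to Iglj2, so both used the nearest J of those observed. Among contigs with 10 to under 500 UMIs the share of IGLJ3 within IGLV1 was 22.9% (19.7 to 26.3%), 1.5 times the share over all contigs, while the J shares of IGLV2 and IGLV3 stayed inside their intervals.

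Iglj2 lies upstream of Iglv1, 115 kb away, so the 5 contigs called IGLV1 with IGLJ2 are out of locus order. Of these, 3 had 1 UMI, a V region changed from germline and the CDR3 that is also the most frequent one of IGLV1-IGLJ3. The other 2 had a germline V region, 25 and 45 UMIs and IGLC2. One of them had this CDR3, in which capitals mark bases shared by both ends:
IGLV1-IGLJ2, 45 UMIs: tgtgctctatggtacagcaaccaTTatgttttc

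The C gene followed the J segment in nearly every contig. Of the contigs with a C call, IGLC1 stood behind 1008 of 1008 with IGLJ1, IGLC3 behind 179 of 179 with IGLJ3, and IGLC2 behind 466 of 473 with IGLJ2 (98.5%, interval 97.0 to 99.4%). A count of 0 allows up to 0.298% of another C behind IGLJ1 and up to 1.68% behind IGLJ3. The 7 exceptions were IGLJ2 contigs called IGLC3, the C gene that shares most bases with IGLC2. In 5 of them the contig rested on 1 to 4 UMIs, and in the other 2 on 53 and 56. Among those 5, 2 IGLV1 contigs of 1 UMI had the CDR3 that leads IGLV1-IGLJ3. A C call was missing from 22 contigs, whose median was 1 UMI and highest 4.

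**Figure D1:**
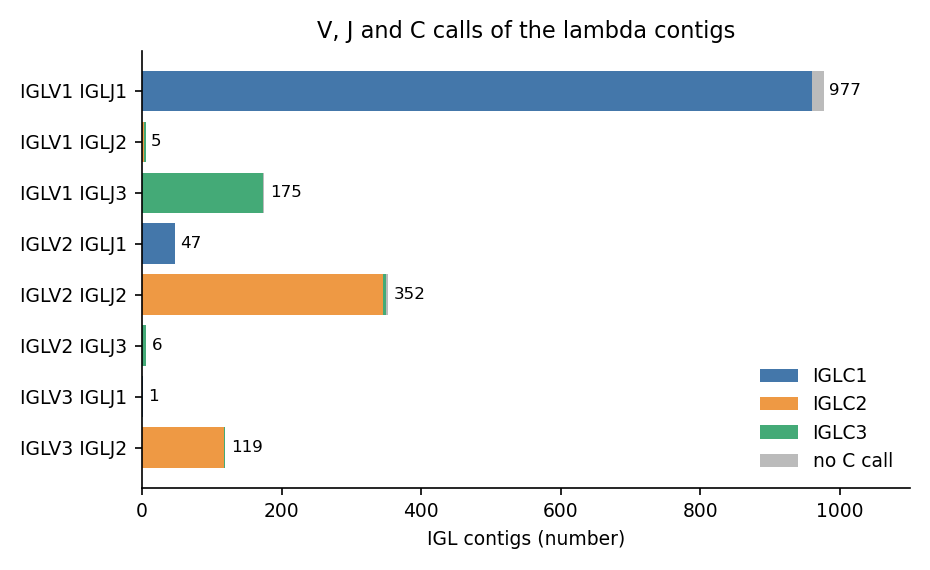
Bars give the number of IGL contigs (x axis) for each V and J pair (y axis) in the control B220lo library, split by C call. IGLV1-IGLJ1 with IGLC1 is the longest bar, with 977 contigs in all, and IGLJ1, IGLJ2 and IGLJ3 lead to IGLC1, IGLC2 and IGLC3 apart from 7 IGLJ2 contigs called IGLC3.

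CDR3 length was nearly fixed within a V gene. It was counted in codons from the conserved cysteine to the conserved phenylalanine. IGLV1 CDR3s had 11 codons in 93.6% of contigs (92.0 to 94.9%) and ranged from 6 to 12. IGLV2 CDR3s had 11 codons in 88.6% (85.1 to 91.6%) and ranged from 9 to 12, with 12 codons in 7.41%. IGLV3 CDR3s had 15 codons in 93.3% (87.3 to 97.1%) and ranged from 13 to 17, so IGLV3 did not overlap the other two in length. The germline end of IGLV3 is 40 bases long from the cysteine codon, against 27 for IGLV1 and IGLV2.

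**Figure D2:**
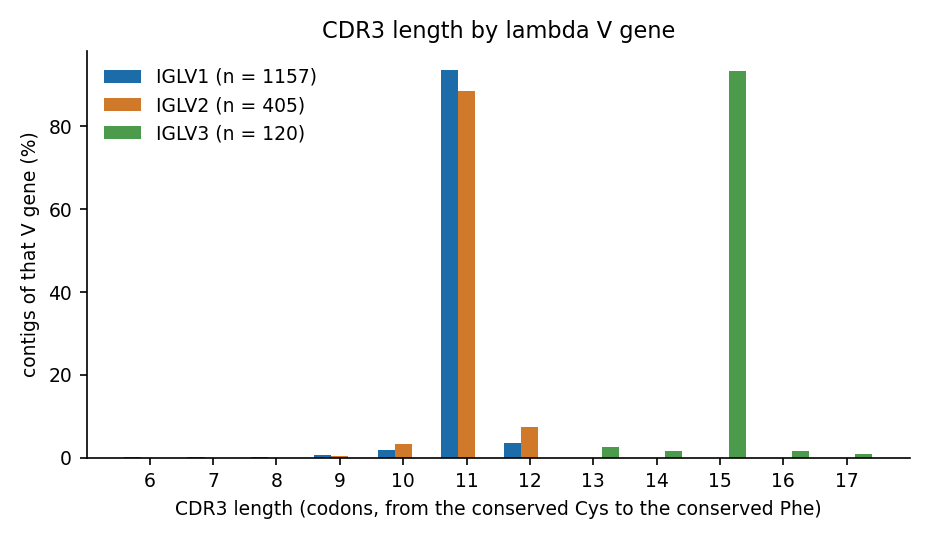
Bars give the share of contigs of each lambda V gene (y axis, percent) at each CDR3 length (x axis, codons). IGLV1 and IGLV2 peak at 11 codons and IGLV3 at 15, with no length common to IGLV3 and the other two.

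Few lambda CDR3 sequences made up most of the contigs. The 1682 IGL contigs held 89 distinct combinations of V, J and CDR3 nucleotides, and the 5 most frequent covered 68.8% of contigs. In the same library 7402 IGK contigs held 1382 combinations over 97 V genes, and the 5 most frequent covered 11.3%. The leading IGLV3-IGLJ2 sequence printed above accounted for 93.3% of that pair, the leading IGLV2-IGLJ2 sequence for 79.3%, the leading IGLV1-IGLJ3 sequence for 63.4% and the leading IGLV1-IGLJ1 sequence for 40.9%. Over distinct sequences in place of contigs, 11 codons made up 53.8% of IGLV1 and 57.1% of IGLV2, and 15 codons 22.2% of the 9 IGLV3 sequences.

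Among lambda contigs of 10 to under 500 UMIs, barcodes with the same lambda CDR3 carried different heavy chains. In that range the leading IGLV1-IGLJ1 sequence was found with a single IGH contig in 197 barcodes, and these held 197 distinct heavy chain sequences. The count was 190 of 190 for IGLV2-IGLJ2, 82 of 82 for IGLV3-IGLJ2 and 65 of 65 for IGLV1-IGLJ3. So the repeats of a lambda CDR3 did not come with a repeated heavy chain in these barcodes. Heavy chains were nearly all distinct in that range whatever the light chain, so this was not particular to a shared lambda CDR3. With a single IGL contig and no IGK 828 of 832 IGH contigs were distinct, and with a single IGK contig and no IGL 3473 of 3538. Beside IGL contigs of 500 or more UMIs 13 of 16 were distinct.

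Most joins used bases that the V end and the J start share. Among 1094 contigs with 10 to under 500 UMIs and a germline V region, 69.1% (66.3 to 71.8%) had at least 1 shared base at the join. A further 20.5% were joined directly, with no base shared or added. The remaining 10.4% (8.67 to 12.4%) held added bases, meaning bases outside the longest germline match from either end. In 52 of these 114 the added bases mirrored an untrimmed V or J end. Shared bases were found in 94.7% of IGLV3 contigs, 79.6% of IGLV2 contigs and 58.9% of IGLV1 contigs. Direct joins went the other way, at 2.63%, 9.33% and 29.7%. The following IGLV2-IGLJ2 CDR3 (25 contigs, 12 codons) is an example of added bases, in capitals, that mirror the start of IGLJ2.
IGLV2-IGLJ2, added bases: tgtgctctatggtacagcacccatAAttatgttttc

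UMIs per contig differed between the V genes mainly through IGLV1 contigs of few UMIs. The median was 18 for IGLV1 (quartiles 3 and 50), 30 for IGLV2 (16 and 46) and 32 for IGLV3 (20.8 and 41.3). For IGLV1 contigs whose V region equalled germline the median was 34. Within 10 to under 500 UMIs the medians were 45, 34 and 32, so the order of IGLV1 turned from lowest to highest. Apart from 15 contigs with 501 to 10939 UMIs, no IGL contig had more than 244. Those 15 held 69.2% of the 168004 IGL UMIs of the library.

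V regions changed from germline were almost all IGLV1. A V region was called changed where any base from framework 1 to framework 3 differed from germline, and such contigs were 295 of 1157 IGLV1 contigs (25.5%, 23.0 to 28.1%), 6 of 405 IGLV2 contigs and 0 of 120 IGLV3 contigs, which allows up to 2.5%. They were found in 62.3% of contigs with 1 or 2 UMIs, 98 of 272 with 3 to 9, 12 of 1106 with 10 to under 500 and 11 of 15 with 500 or more. The 2 ends of the UMI range were thus rich in changed V regions and the middle was not. The median changed IGLV1 contig had 2 UMIs.

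**Figure D3:**
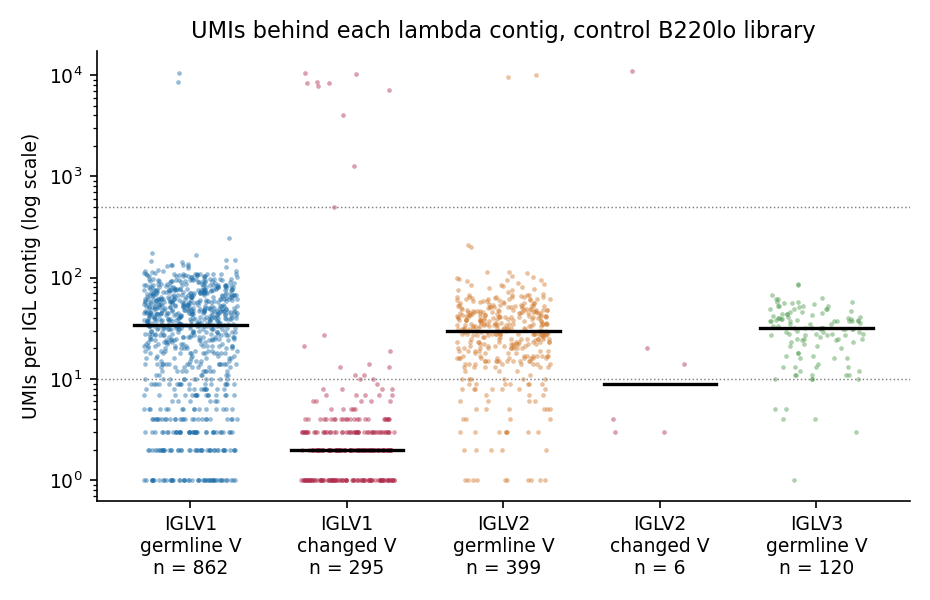
Each point is 1 IGL contig at its UMI count (y axis, log scale), by V gene and by whether its V region equals germline, with black lines at the medians and dotted lines at 10 and 500 UMIs. Changed IGLV1 contigs have a median of 2 UMIs, the germline groups have medians of 30 to 34, and 15 contigs lie at 501 or more.

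The changed contigs of few UMIs repeated the sequences of a few contigs of many UMIs. Of the 278 changed contigs under 10 UMIs, 229 were identical over the whole variable region to a contig with 500 or more UMIs in another barcode. Positions are counted from 1 at the first base of framework 1, with the germline base first. The change A164T alone was in 165 of the 278, G43C, A160T and T219A together in 43, and T42G alone in 27. Each set had exactly 1 contig of 500 or more UMIs, with 1270, 501 and 8541 UMIs. Other changed contigs of many UMIs had few or no such matches. Those of 10939, 10445, 8394, 8305, 7859, 7187 and 4036 UMIs had 0 identical contigs under 10 UMIs, and that of 10189 had 1. A stretch for each set is shown after its germline counterpart, because these bases tell the set from germline. Capitals mark the changed base. For the set of 3 changes it is the stretch around A160T.
Germline IGLV1, bases 150 to 178: aggtggtaccaacaaccgagctccaggtg
A164T, bases 150 to 178: aggtggtaccaacaTccgagctccaggtg
Germline IGLV1, bases 146 to 174: taataggtggtaccaacaaccgagctcca
A160T, bases 146 to 174: taataggtggtaccTacaaccgagctcca
Germline IGLV1, bases 28 to 56: ctcaccacatcacctggtgaaacagtcac
T42G, bases 28 to 56: ctcaccacatcaccGggtgaaacagtcac
The CDR3s that go with T42G and A164T follow. The capital in the first marks a base that differs from the IGLV1 end printed above. The capitals in the second mark the 2 bases left between the longest germline matches from each end. Only the first of these 2 differs from the IGLV1 end at its position.
CDR3 of the T42G contigs: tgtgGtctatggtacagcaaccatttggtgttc
CDR3 of most A164T contigs: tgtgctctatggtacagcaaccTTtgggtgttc
The last CDR3 was the second most frequent of IGLV1-IGLJ1, with 245 contigs. Of these 184 had a changed V region and a median of 2 UMIs, and those with a germline V region had a median of 18. The 278 changed contigs under 10 UMIs stood beside 252 IGH contigs, of which 234 were IGHM, whereas the heavy chains beside the contigs of 500 or more UMIs were IGHA or IGHG2B. Whether RNA released from the high barcodes entered the others was not tested.

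The 15 barcodes with 500 or more IGL UMIs carried plasma cell transcripts. Their lambda chains were 12 IGLV1 and 3 IGLV2, and their heavy chains were 15 IGHA and 1 IGHG2B, with 789 to 7430 UMIs. In 7 of the 15 the heavy chain used IGHV14-2 and IGHJ1 with a CDR3 of 14 codons in 4 distinct sequences, and all 7 had an IGLV1-IGLJ1 light chain, 5 of them with A164T. Summed over the 15 barcodes, the plasma cell markers Sdc1, Jchain, Xbp1, Prdm1 and Mzb1 came to 49617 CPM (UMI counts summed over the class and scaled to the same total in every class), against 781 CPM in barcodes with 10 to under 500 IGL UMIs and no IGK contig, and 45044 CPM in 109 barcodes with 500 or more IGK UMIs and no IGL. Jchain made up most of the high sums, at 44867, 99.1 and 40976 CPM by itself in the same order of classes. The 6 T and NK cell markers were at 0 in these 15 barcodes, and the B-lineage markers summed to 1241 CPM.

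Lambda contigs stood beside a heavy chain in most barcodes and beside a kappa chain in few. Of 1625 barcodes with IGL, 90.5% (88.9 to 91.8%) also had IGH, 16.1% (14.3 to 17.9%) also had IGK, and 9.54% had neither. The 261 of these that also had IGK all had IGH. Of the 1364 barcodes with IGL and no IGK, 1209 had IGH. Of the 6440 barcodes with IGK and no IGL, 5827 (90.5%) had IGH. By the V gene with most UMIs in the barcode, IGK was present in 15.7% of IGLV1, 16.1% of IGLV2 and 19.3% (12.3 to 27.9%) of IGLV3 barcodes, with overlapping intervals. The share with IGK was 14.9% for lambda contigs of 1 or 2 UMIs and 16.1% for those of 10 to under 500. No barcode had IGL and IGK without IGH. The same absence was seen over all light chain pairs in the deposited table. Of 1019 barcodes with 2 light chain contigs, kappa pairs included, 0 lacked IGH, while 768 of 7046 with 1 light chain contig did. The cause of this absence was not tested.

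In 138 barcodes both an IGL and an IGK contig had 10 to under 500 UMIs, with medians of 43 and 31.5 UMIs. Of these barcodes 33.3% also had 2 IGH contigs, against 11.7% of 829 barcodes with a single IGL contig in that range and no IGK, and 8.29% of 3607 with a single IGK contig and no IGL. Their median depth in the gene count matrix was 4320.5 UMIs, against 2556 and 3255. Second heavy chains and greater depth moved together with the presence of both light chains, and the part of barcodes holding more than 1 cell was not tested. The kappa chains beside lambda used IGKJ5, the J segment farthest downstream in the kappa locus, in 58 of 138 cases (interval 33.7 to 50.7%), against 27.5% (26.1 to 29.0%) where no IGL contig was present.

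A pair of lambda contigs was found in 57 barcodes. The pairs were IGLV1 with IGLV2 in 35, IGLV1 with IGLV3 in 9, IGLV1 with IGLV1 in 7 and IGLV2 with IGLV3 in 6, and IGLV1-IGLJ1 with IGLV2-IGLJ2 was the most frequent combination, in 16. In 51 of the 57 both contigs had 10 or more UMIs, with medians of 45 for the higher and 25 for the lower contig, and 0 of the contigs had a changed V region. The median depth of these barcodes was 2617 UMIs, close to the 2556 of barcodes with a single lambda contig, and 15.8% had 2 IGH contigs. None had an IGK contig, but 0 of 9872 barcodes in the table held 3 light chain contigs of any kind, so that pairing could not be seen.

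The heavy chains beside lambda were mostly of the IgM class. The 829 barcodes with a single IGL contig of 10 to under 500 UMIs and no IGK held 832 IGH contigs. Of these 95.3% (93.6 to 96.6%) were IGHM and 1.80% IGHA, and 828 were distinct. Beside a single IGK contig in the same range and no IGL 94.0% (93.2 to 94.8%) were IGHM. By V gene the IGHM share was 94.8% for IGLV1, 96.9% for IGLV2 and 93.8% for IGLV3.

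The gene counts came from a separate sequencing library of the same cDNA as the contigs and had no part in choosing the members. Both libraries can count the same transcript molecules, so a match between them is not an independent check of the V calls. In barcodes with 1 IGL contig of 10 to under 500 UMIs and no IGK, each V gene's transcripts were highest where the contig named it. Iglv1 was at 12338 CPM (Poisson interval 12174 to 12504) in the 495 IGLV1 barcodes, against 4796 CPM in IGLV2 barcodes, 5575 CPM in IGLV3 barcodes and 362 CPM in 4081 barcodes with IGK of 10 to under 500 UMIs and no IGL. Iglv2 was at 8741 CPM (8541 to 8944) in the 256 IGLV2 barcodes, against 707 CPM in IGLV1 barcodes, 802 CPM in IGLV3 barcodes and 55.7 CPM with IGK. Iglv3 was at 6651 CPM (6351 to 6962) in the 78 IGLV3 barcodes, against 369 CPM in IGLV1 barcodes, 218 CPM in IGLV2 barcodes and 84.7 CPM with IGK. By UMIs not scaled to gene length, the V gene that the contig named had the most of the 3 in 98.2% of IGLV1, 73.4% of IGLV2 and 61.5% of IGLV3 barcodes. Without the limit on contig UMIs Iglv1 was at 18890 CPM in IGLV1 barcodes and Iglv2 at 30617 CPM in IGLV2 barcodes. Barcodes under 10 UMIs and those with 500 or more then enter together. Of 32793 Iglv2 UMIs in these 303 IGLV2 barcodes, 7274 lay in the 256 of 10 to under 500 UMIs. For Iglv1 it was 21577 of 85175 in the IGLV1 barcodes. All barcodes under 10 UMIs without IGK held 166 Iglv2 and 1187 Iglv1 UMIs.

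Iglv1 transcripts were also high in many barcodes whose only lambda contig was IGLV2 or IGLV3. At least 10 Iglv1 UMIs were counted in 116 of 256 IGLV2 barcodes (45.3%, interval 39.1 to 51.6%) and in 37 of 78 IGLV3 barcodes (47.4%, 36 to 59.1%). The share was 3.97% (3.39 to 4.61%) in kappa barcodes. In those IGLV2 and IGLV3 barcodes the medians were 25.5 and 37 Iglv1 UMIs, while 78 and 26 barcodes had 0. The reverse was less frequent, with at least 10 Iglv2 UMIs in 9.09% and at least 10 Iglv3 UMIs in 5.05% of 495 IGLV1 barcodes. Median depth was 2494.5 UMIs in IGLV2 barcodes with 10 or more Iglv1 UMIs and 2493.5 in those with 0. All contigs in the deposited table are listed as productive, so transcripts of unproductive joins, which could not be seen among the contigs, cannot be told apart here from unjoined Iglv1 transcripts. The V regions of Iglv1 and Iglv2 share most of their sequence, as printed above, and that of Iglv3 shares less with them. How reads were assigned between the V genes was not tested.

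**Figure D4:**
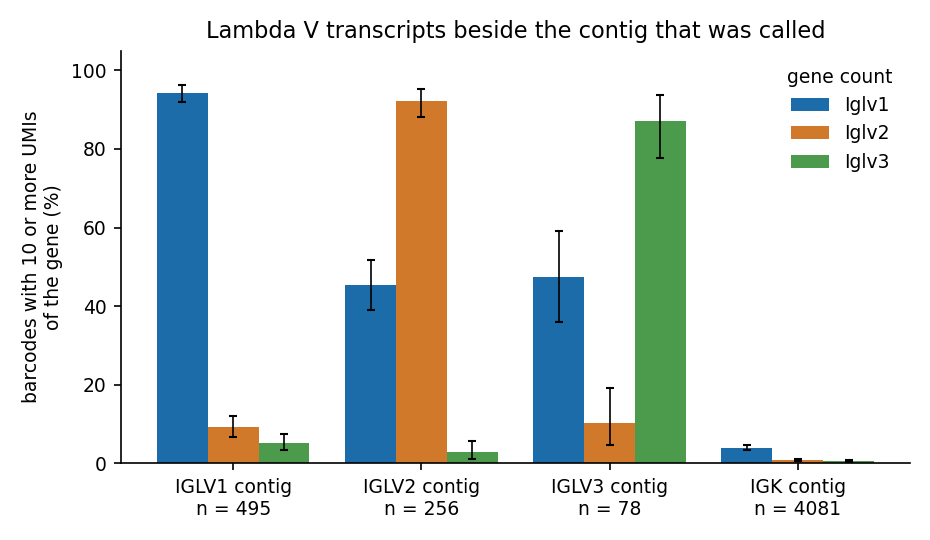
Bars give the share of barcodes (y axis, percent) with 10 or more UMIs of Iglv1, Iglv2 or Iglv3 in the gene counts, for barcodes with 1 contig class of 10 to under 500 UMIs (x axis), and error bars are exact 95% binomial intervals. Iglv1 passes 10 UMIs in 45.3% of IGLV2 and 47.4% of IGLV3 barcodes, against 3.97% of IGK barcodes.

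In barcodes whose lambda contig had under 10 UMIs and that held no IGK, Iglv1 transcripts differed between contigs with a changed and a germline V region. Iglv1 was at 212 CPM (190 to 236) in the 236 barcodes with a changed V and at 766 CPM (716 to 820) in the 229 with a germline V. The median depth of these barcodes also differed, at 4088 and 2372 UMIs, and its part in the result was not tested. Over both sets Iglv1 was at 436 CPM (412 to 462) in 465 barcodes, against 362 CPM in kappa barcodes of 10 to under 500 UMIs, 588 CPM in all barcodes with IGK and no IGL, 481 CPM in barcodes with IGH only and 619 CPM in barcodes with no contig. At least 1 Iglv1 UMI was present in 88.2% of the 465 and in 36.7% of all barcodes with IGK and no IGL, 32.2% with IGH only and 31.3% with no contig, at median depths of 3152, 3187, 3202 and 3746 UMIs. After thinning each barcode to 1000 UMIs the shares were 47.2%, 18.5%, 19.2% and 14.4%, with 16, 73, 8 and 411 shallower barcodes left out. The 465 were chosen by a lambda contig from the same cDNA, which was a single IGLV1 contig in 414. Their higher share with an Iglv1 UMI is therefore not independent of that choice. The interquartile range in the lambda barcodes under 10 UMIs was 1 to 2 Iglv1 UMIs, against 23 to 60 in IGLV1 barcodes of 10 to under 500 UMIs.

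Summed markers of other cells were higher in barcodes with few lambda UMIs, but granulocyte and monocyte markers only in those with a germline V. Erythroid markers (Klf1, Car1, Car2, Hba-a1 and Hbb-bs) summed to 1658 CPM in barcodes with an IGL contig under 10 UMIs and no IGK, and to 47.1 CPM in those with 10 to under 500. Split by V region, they summed to 2606 CPM in the 236 barcodes with a changed V and to 260 CPM in the 229 with a germline V. Granulocyte and monocyte markers summed to 1078 CPM and 7479 CPM in the same 2 sets, and to 2370 CPM in barcodes of 10 to under 500 UMIs. The B-lineage markers summed to 7446 CPM in barcodes under 10 UMIs and to 13743 CPM in those of 10 to under 500. Barcodes without a lambda contig held such markers too. Erythroid markers were at 1111 CPM with IGH only and 3922 CPM with no contig, and granulocyte and monocyte markers at 1342 and 10136 CPM. These are sums over a class, and their spread over barcodes was not examined. Of 44 Klf1 UMIs in all barcodes with IGL and no IGK, 26 were in 1 barcode. The part of these other cells in the low counts was not tested.

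The C gene counts did not sort by the C call of the contigs as the V gene counts did by V call. Iglc1 was at 446 CPM (412 to 481) in barcodes with an IGLC1 contig of 10 to under 500 UMIs at 392 CPM (354 to 433) with IGLC2 and at 374 CPM with IGLC3. Iglc2 was at 1318 CPM with IGLC1, 1113 CPM with IGLC2 and 1327 CPM with IGLC3. Iglc3 was at 520 CPM (450 to 598) with IGLC3, 562 CPM with IGLC2 and 349 CPM (320 to 381) with IGLC1. Beside IGK contigs of 10 to under 500 UMIs and no IGL the 3 genes were at 197, 615 and 413 CPM, and in barcodes with no contig at 45.2, 101 and 137 CPM. The kit reads transcripts from the 5′ end, where a light chain mRNA holds its V region, and what the C gene counts derive from was not tested. Iglc4 had 22 UMIs in the whole library.

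Across the 7 contig classes with at least 50 barcodes, the genes outside the immunoglobulin loci most alike in pattern were listed for each C gene by Pearson's r of log2(CPM + 1) over 13715 genes. They were 5830418P13Rik, Derl3 and Lcor for Iglc1 (r from 0.96 to 0.97), Acp5, Gm34215 and Gm30054 for Iglc2 (0.99 in each) and H2-Q6, Gbp9 and Klc1 for Iglc3 (0.98 to 0.99). The classes come from 1 library and 7 points are few, so these values are a description only.

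Few B-lineage genes differed by 2-fold between barcodes with lambda and barcodes with kappa alone. Genes in 8 lists were compared between 1364 barcodes with IGL and no IGK and 6440 with IGK and no IGL, as log2 ratios of summed CPM with 1 CPM added. With 1 library there is no test, and a difference was counted from 2-fold up. Of 12242 genes with at least 50 UMIs, 0.327% were 2-fold higher with lambda and 1.21% 2-fold lower, and the median log2 ratio was 0.02. Of the 69 list genes 0 were 2-fold higher and 1 was 2-fold lower, so the lists were near the background. The exception was the survival gene Bcl2a1b, at 3.45 CPM with lambda and 8.11 CPM with kappa (log2 ratio -1.03), and it rested on 21 lambda UMIs. It fell short of 2-fold with contigs of at least 3 UMIs, without barcodes of several IGH contigs, and with 10 CPM added. The mature B list had a median log2 ratio of -0.34, with the class II chaperone Cd74 at 2422 and 3780 CPM (-0.64), H2-Aa at 352 and 528 CPM (-0.58) and Fcer2a at 6.41 and 11.8 CPM (-0.79).

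With both light chains limited to 10 to under 500 UMIs the classes held 885 and 4081 barcodes, and plasma cells of 500 or more UMIs were outside them. Of 11249 genes 0.907% were then 2-fold higher with lambda and 1.9% 2-fold lower. The list genes past 2-fold were Pim2, a survival kinase, at 118 against 57.9 CPM (log2 ratio 1.02), Prdm1, the plasma cell regulator, at 5.89 against 2.32 CPM (1.05), and Bcl2a1b at 3.92 against 12 CPM (-1.41). With lambda Prdm1 rested on 18 UMIs and Bcl2a1b on 12.

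The recombination list had a median log2 ratio of 0.02 in that comparison, with 0 of 10 genes past 2-fold. Its largest difference was Rag1, a subunit of the RAG recombinase, at 145 CPM (132 to 159) with lambda and 74.3 CPM (70.4 to 78.3) with kappa (0.96). Xrcc6, a subunit of the end-binding Ku complex, was at 281 and 195 CPM (0.53), and Xrcc5, the other Ku subunit, at 11.4 and 15.9 CPM (-0.44).

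Of the 15 regulators of the light chain loci 0 passed 2-fold, with a median log2 ratio of 0.06. Foxo1, a transcription factor that acts on the Rag genes, was at 321 CPM (302 to 342) with lambda and 218 CPM (211 to 225) with kappa (0.56). Tcf4 was at 305 and 240 CPM (0.34) and Nfkb1 at 136 and 157 CPM (-0.20).

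The 8 receptor signalling genes had a median of 0.21 and 0 past 2-fold. Their largest difference was Cd79a, a signalling chain of the receptor, at 4483 against 3360 CPM (0.42). Cd79b was at 2654 and 2227 CPM (0.25) and the kinase Syk at 636 and 549 CPM (0.21). The 4 surrogate light chain genes had a median of -0.03, and Igll1, which forms the pre-B receptor with Vpreb1, was at 172 CPM (158 to 188) with lambda and 188 CPM (182 to 195) with kappa. Vpreb2 was at 16.4 and 15 CPM (0.12) and Vpreb3 at 2514 and 2615 CPM (-0.06).

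In the pre-B list (6 genes, median -0.06, 0 past 2-fold) the cell cycle genes Top2a and Mki67 were lower with lambda, at 202 against 334 CPM (-0.72) and 228 against 365 CPM (-0.68). Il2ra was at 129 and 92.9 CPM (0.47). Without the limit on UMIs Mki67 was at 492 and 452 CPM (0.12) and Top2a at 410 and 385 CPM (0.09), so the sign of both cell cycle genes turned with the limit, which leaves out barcodes under 10 and those of 500 or more light chain UMIs together. In the mature B list (14 genes, median -0.18, 0 past 2-fold) the largest differences were Fcer2a at 8.18 and 16.5 CPM (-0.93), Cd55 at 138 and 84.4 CPM (0.71) and the class II gene H2-Aa at 454 and 729 CPM (-0.68). The plasma cell list (5 genes) had the highest median, 0.61, with Mzb1 at 529 and 324 CPM (0.71) and Xbp1 at 129 and 84.1 CPM (0.61). Beside these and Prdm1, given above, Sdc1 was at 18 and 18.8 CPM (-0.06) and Jchain at 99.1 and 96.2 CPM (0.04). In the survival list (7 genes, median 0.20) the pro-apoptotic Bcl2l11 was at 19.9 and 12 CPM (0.69).

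Over all genes outside the immunoglobulin loci several of the largest differences came from single barcodes. Without the limit on UMIs Lyz1 and Ncam2 were highest with lambda (log2 ratios 3.28 and 3.21), and 54 of 55 Lyz1 UMIs were in 1 barcode. Klf1, Ly6i and Ly6c1 followed. Lowest were Cstdc5, Cstdc4, Stfa1, Mcpt8 and Stfa2l1, and 257 of 268 Stfa1 UMIs with kappa were in 1 barcode. Within 10 to under 500 UMIs the highest were Chil3, Fcnb, Dmrt3, Ifitm1 and Gm20743. Of these Chil3 had 104 of 150 lambda UMIs in 1 barcode, whereas Ifitm1 was spread over 107 barcodes (53.6 against 11.9 CPM) and Gm20743 over 66 (24.9 against 5.35 CPM). The lowest were Cstdc5, Stfa1, Cstdc4, Stfa2l1 and Hbb-bs, and 1 kappa barcode held 1546 of 1899 Hbb-bs UMIs.

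The 3 Kit+ libraries held 21 lambda contigs. The Mll3/4 deleted library had 3393 IGH contigs, against 34 in control and 25 in Mll3/4SI cells, while light chain contigs numbered 36, 39 and 28 in the same order. Lambda contigs numbered 7 in control, 5 in Mll3/4 deleted and 9 in Mll3/4SI cells, in 0.0574%, 0.0331% and 0.0729% of barcodes with overlapping intervals. They were 13 IGLV1 and 8 IGLV2, each with a CDR3 of 11 codons and a germline V region, and 18 had 10 or more UMIs. For 19 of them a contig with the same bases over the whole variable region was also present in the B220lo library. Of the cell barcodes in the control, Mll3/4 deleted and Mll3/4SI Kit+ libraries, 286, 345 and 249 also occurred in the B220lo library. Among these were 20, 31 and 32 of its lambda barcodes, and 9.64% of all B220lo barcodes held lambda.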

How the data were processed

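Single cells were measured with a 10x Genomics 5′ kit, version 2, per the labels' protocols. The authors deposited UMI counts per gene and barcode, not normalized, and contig tables with read and UMI counts per contig, and all contigs in the control B220lo table are listed as productive, per the file itself. Cell Ranger 7.1.0 and mm10 are named in the submitters' processing notes. Cell calling was done by the authors, and no further cell filter or doublet caller was applied in the values reported; a filter of at least 1000 UMIs, 500 genes and at most 10% mitochondrial UMIs was tried as an alternative.

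Depth was 85445426 UMIs in the B220lo matrix (median 3272 per barcode) and 1714188 UMIs over its contigs. V regions were compared base by base with GENCODE M21 transcripts (GRCm38), and a mismatch made a V region changed. A join was split by the longest germline match from each end. Counts were summed per barcode class and scaled to CPM, which depends on all genes of the class. The ratio step was tested on simulated data. Genes named were the 3 largest ratios of each list and the 5 largest each way outside the immunoglobulin loci among genes with at least 50 UMIs. CDR3s printed were the most frequent of each V and J pair with at least 5 contigs, and the other sequences were chosen after their values were seen. The members and lists were chosen with earlier results of these data known. Python packages were scipy 1.17.1, numpy 2.4.6 and pandas 2.3.3.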

Additional observations from a re-analysis of the deposited data

How the results depend on the processing

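Of 135 values recomputed under alternatives for 24 results, 84 stayed inside the interval of the reported value (or within 1.5 times, for counts of genes) and 51 did not. The order of values turned in places: the IGLV1 median was the lowest of the 3 V genes over all contigs (18 UMIs) and the highest (34) with at least 3 UMIs or germline V only, and Iglv2 in IGLV2 barcodes was above Iglv1 in IGLV1 barcodes over all contigs (30617 and 18890 CPM) and below it with light chains of 10 to under 500 UMIs. The cell filter moved 0 of 24. With contigs of at least 3 UMIs IGLV1, IGLV2 and IGLV3 had 63.5%, 28.0% and 8.54% of contigs, IGLJ1 and IGLJ3 had 80.9% and 18.9% of IGLV1, the IGLV1 median was 34 UMIs and 88.5% of lambda barcodes had IGH. Iglv1, Iglv2 and Iglv3 in their own barcodes were then at 28696, 32340 and 6609 CPM, and 0 list genes were 2-fold lower. Without barcodes of several IGH contigs IGLJ2 had 100% of IGLV3 and IGK stood beside 13.8% of lambda barcodes. Iglv1 and Iglv2 were then at 20448 and 34125 CPM, and 0 list genes were 2-fold lower. That alternative left out 187 of 1625 lambda barcodes and kept those with both IGK and IGL or with a pair of IGL contigs. Over distinct CDR3 sequences the V shares were 58.4%, 31.5% and 10.1%, the shares at the most frequent length 53.8%, 57.1% and 22.2%, IGLJ1 and IGLJ3 had 73.1% and 21.2% of IGLV1, IGLJ2 and IGLJ1 50% and 42.9% of IGLV2, IGLJ2 88.9% of IGLV3, and IGLC2 96% of IGLJ2. The remaining contig alternatives were chosen after seeing the data. With germline V regions only, the V shares were 62.4%, 28.9% and 8.69%, IGLV1 had 91.4% at 11 codons, a median of 34 UMIs, and 79.5% IGLJ1 and 20.3% IGLJ3. With 10 to under 500 UMIs they were 58.5%, 31.2% and 10.3%, IGLV1 had 90.7% at 11 codons, 76.8% IGLJ1 and 22.9% IGLJ3, and IGLC2 had 99.5% of IGLJ2. With all chains in that range 13.1% of lambda barcodes had IGK and 73.8% IGH. Scaled without immunoglobulin genes Iglv1 and Iglv2 were at 19548 and 32558 CPM. With 10 CPM added 0 list genes were lower. With light chains of 10 to under 500 UMIs Iglv1, Iglv2 and Iglv3 were at 12338, 8741 and 6651 CPM and 2 list genes were higher. Apart from the smaller sets of contigs or barcodes, the cause of these shifts was not tested. C gene transcripts were not recomputed under alternatives. Of the 1682 contigs 289 rest on 1 or 2 UMIs. No paired analysis was possible because each group has 1 library.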
